A study of Mus musculus with 2 samples.

Results

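The subject is 10 genes of the T cell receptor module in mouse CD8 T cells: the CD3 chains Cd3e, Cd3d and Cd3g, the zeta chain Cd247, the coreceptor chains Cd8a and Cd8b1, the surface regulators Cd5 and Cd6, and the kinases Lck and Zap70. They were chosen by gene symbol, 10 of the 31017 symbols counted, and all were measured in both libraries. Total CD8 T cells of CD45.1 C57BL/6J mice aged 3 months had been transferred into CD45.2 C57BL/6J mice aged 24 months, and splenic CD8 T cells were taken 1 month later, when the hosts were 25 months old. The old recipient library held host cells sorted as CD45.2+CD3e+CD8a+, and the young donor library held transferred cells sorted as CD45.1+CD3e+CD8a+. All mice were wild type, and both populations had spent the month in an aged host. From each population came 1 droplet 5' library, in which each captured molecule is counted once by its molecular identifier (UMI). The labels do not say how many mice or pools lay behind a library. With 1 library per group nothing was tested between groups, library and group cannot be told apart, and every interval below is a 95% interval for counting error only.

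The receptor that recognises peptide on MHC molecules has no signalling tail of its own. It relies on the CD3 and zeta chains, whose cytoplasmic tails carry activation motifs, each a pair of tyrosines spaced along the tail. CD8 binds MHC class I and brings the kinase Lck, which phosphorylates these tyrosines, and Zap70 then docks on them and passes the signal on. Cd5 and Cd6 are scavenger receptor family proteins on the T cell surface that temper this signal, and surface CD5 is widely used as a gauge of how strongly a T cell sees self peptide.

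The module's shared element is the activation motif, shown here as the coding sequence that specifies it, 5' to 3', with capitals for the codons of the motif's 2 tyrosines and of the leucine or isoleucine that follows each. The sequences are from GENCODE M21 transcripts on GRCm38. Fcer1g, which is no member but defines a cell class below, encodes an adaptor with such a motif that can pair with zeta, and is shown for comparison.
Cd3e: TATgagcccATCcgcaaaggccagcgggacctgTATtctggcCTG
Cd3d: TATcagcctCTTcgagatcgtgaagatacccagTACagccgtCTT
Cd3g: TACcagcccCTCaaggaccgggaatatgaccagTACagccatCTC
Cd247, motif 1: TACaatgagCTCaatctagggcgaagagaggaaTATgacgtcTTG
Cd247, motif 2: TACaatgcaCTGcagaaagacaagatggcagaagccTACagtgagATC
Cd247, motif 3: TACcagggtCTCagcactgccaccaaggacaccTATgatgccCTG
Fcer1g: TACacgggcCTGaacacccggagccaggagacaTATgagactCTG
The CD3 chains carried 1 motif each and zeta carried 3. All spanned 15 codons except the second zeta motif, which spanned 16.

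Cells were described in 4 classes set by other genes. Naive-type cells had at most 3 UMIs of the chemokine gene Ccl5 and none of the memory marker Ly6c2. Ly6c2 cells had at least 2 UMIs of Ly6c2, Gzmk cells at least 2 UMIs of granzyme K, and Fcer1g cells at least 1 UMI of the innate adaptor gene Fcer1g. No member was used to set a class. The recipient library gave 1574 naive-type, 2250 Ly6c2, 1064 Gzmk and 170 Fcer1g cells, and the donor library gave 807, 5140, 1117 and 50. The classes overlap, and nearly all Fcer1g cells, 157 in the recipient and 44 in the donor, were also Ly6c2 cells.

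Filters left 5341 recipient and 7451 donor cells, whose median depths were 6931 and 7798 UMIs, and 105 barcodes occurred in both libraries. Gzmk cells were shallower than the rest, with medians of 4563 and 4480 UMIs, against 7002 and 7427 in naive-type cells. Ribosomal protein genes took 27.5% and 29.6% of their UMIs, against 42.9% and 43.4% in naive-type cells. The level per 1000 UMIs of the median gene was therefore 0.31 higher on the log2 scale in Gzmk than in naive-type cells of either library, and ratios relative to the median gene and per cell are given where this matters. Among markers of other cell types, Pax5 of B cells, Sox13 of gamma-delta T cells and Zbtb16 of NKT cells were at 0 in every class of both libraries. Other genes of those T cell lists were detected. In Gzmk cells summed gamma-delta markers were at 0.0762 in the recipient and 0.0604 in the donor, against 0.00494 and 0.00656 in naive-type cells. Summed NK cell markers were at 0.360 and 0.345 there, against 0.0144 and 0.0177. The NK list holds Eomes, which was also listed as a marker of memory CD8 T cells. Its sum therefore does not tell NK cells from memory CD8 T cells. Summed NKT cell markers were at 0.0411 and 0.0432, against 0.0190 and 0.0195. Summed B cell markers stayed between 0.00727 and 0.0429 per 1000 UMIs, and summed myeloid markers between 0.0876 and 0.166.

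Per 1000 UMIs the CD3 chains were highest in Gzmk cells of both libraries. Cd3e, whose product pairs with CD3 delta or gamma, stood at 0.901 per 1000 UMIs in naive-type, 0.808 in Ly6c2, 1.45 in Gzmk and 0.802 in Fcer1g cells of the recipient, and at 0.855, 0.744, 1.33 and 0.791 in the same classes of the donor. In both libraries Gzmk cells led, naive-type cells followed, and the interval of Fcer1g cells included the Ly6c2 level. Cd3d stood at 1.09, 1.03, 1.42 and 0.989 in the recipient and at 1.04, 0.999, 1.33 and 0.908 in the donor. Cd3g stood at 0.903, 0.747, 1.22 and 0.693 in the recipient and at 0.836, 0.693, 1.18 and 0.803 in the donor. The 3 chains thus had the same leading class, with smaller gaps among the other classes.

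The ratio of Gzmk to naive-type cells for Cd3e was 1.61 in the recipient (1.56 to 1.65) and 1.56 in the donor (1.505 to 1.618). Cd3d had 1.29 in both libraries, and Cd3g had 1.36 and 1.41. Relative to the median gene these ratios were 1.29 and 1.26 for Cd3e, 1.04 and 1.04 for Cd3d, and 1.09 and 1.14 for Cd3g. Counted per cell, Cd3d was 0.928 and 0.839 times its naive-type value and Cd3g 0.973 and 0.921 times, so their direction turned, while Cd3e kept 1.15 and 1.02. The donor value of Cd3e had an interval that included 1, from 0.982 to 1.06. So did the recipient value of Cd3g, from 0.943 to 1.004. The chains also shifted against each other, since the ratio of Cd3d to Cd3e UMIs was 1.21 in naive-type cells of both libraries and 0.979 and 1.00 in Gzmk cells. Each UMI marks a molecule, so these ratios need no division by gene length, but capture can differ between genes and they are read only across classes.

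Relative to all UMIs Cd247, the zeta chain with the most activation motifs, was highest in Gzmk cells and next in naive-type cells, as the CD3 chains were. Per cell its direction turned in Gzmk cells, as did that of Cd3d and, beyond counting error only in the donor, that of Cd3g. Unlike the CD3 chains, Cd247 also turned relative to the median gene. It stood at 0.284 in naive-type, 0.236 in Ly6c2, 0.324 in Gzmk and 0.197 in Fcer1g cells of the recipient, and at 0.281, 0.203, 0.325 and 0.203 in the donor. Ly6c2 and Fcer1g cells were both below naive-type cells, by ratios of 0.831 and 0.694 in the recipient and 0.723 and 0.720 in the donor. In Gzmk cells its ratio to naive-type cells was 1.14 and 1.16, which is 0.919 and 0.932 relative to the median gene, and per cell 0.819 (0.772 to 0.869) and 0.754 (0.705 to 0.807), so its direction turned on both other scales. Its ratio to Cd3e was accordingly 0.315 in naive-type and 0.224 in Gzmk cells of the recipient, and 0.329 and 0.244 in those of the donor. Along a cell's own Ly6c2 count it went from 0.298 in cells of either library with no Ly6c2 UMI to 0.215 in recipient and 0.184 in donor cells with 16 or more. The adaptor Fcer1g gave 2.37 UMIs for each Cd247 UMI in recipient Fcer1g cells and 1.14 in donor ones, a class that Fcer1g itself defines, and 0.00228 and 0.00229 in Gzmk cells.

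**Figure D1:**
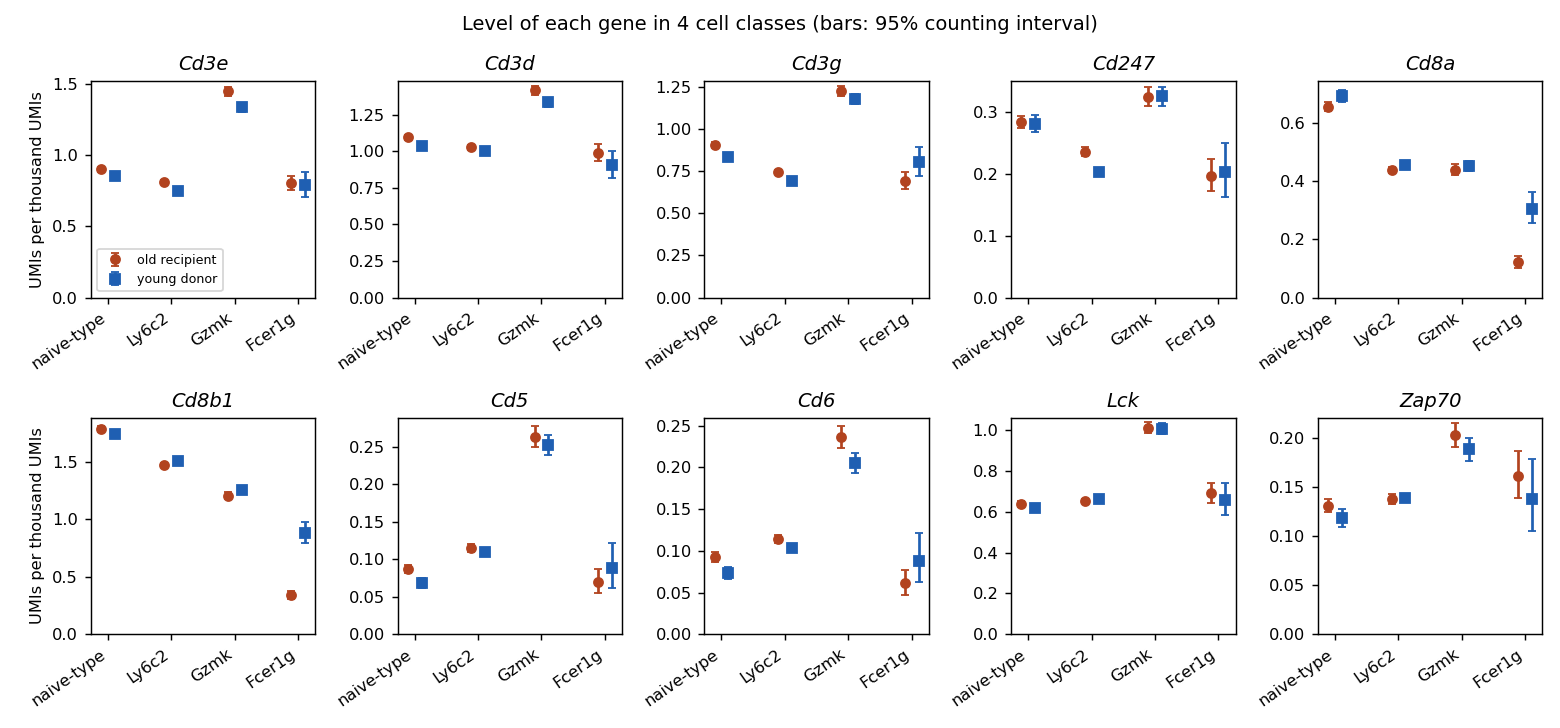
Level of each of the 10 genes in UMIs per 1000 UMIs (vertical axes, linear from 0) in the 4 cell classes; circles are the old recipient, squares the young donor, and bars are 95% counting intervals. Cd5 and Cd6 peak in Gzmk cells, and Cd8a and Cd8b1 are lowest in Fcer1g cells, more so in the recipient.

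The coreceptor genes ran the other way and were highest per 1000 UMIs in naive-type cells. Cd8b1, the beta chain found on conventional CD8 T cells, stood at 1.78 per 1000 UMIs in naive-type, 1.48 in Ly6c2, 1.21 in Gzmk and 0.343 in Fcer1g cells of the recipient. The donor values were 1.74, 1.504, 1.26 and 0.882, so the order of the classes was the same in both libraries. Cd8a, the alpha chain that can also form a homodimer, stood at 0.654, 0.438, 0.439 and 0.122 in the recipient and at 0.691, 0.454, 0.451 and 0.305 in the donor. On this scale the Cd8a intervals of Ly6c2 and Gzmk cells overlapped in both libraries. Per cell they did not, with 3.57 Cd8a UMIs in Ly6c2 and 2.23 in Gzmk cells of the recipient and 3.90 and 2.17 in the donor.

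In Gzmk cells the ratio of Cd8a to naive-type cells was 0.671 for the recipient (0.640 to 0.703) and 0.653 for the donor (0.621 to 0.687). Cd8b1 had 0.676 (0.657 to 0.695) and 0.722 (0.700 to 0.744). Relative to the median gene both chains were between 0.526 and 0.582, and per cell between 0.426 and 0.485. In Ly6c2 cells Cd8a was lower by a similar ratio, 0.669 and 0.657, while Cd8b1 was lower by less, 0.828 and 0.863. Among cells of 2000 to 4000 UMIs, with 90 and 42 naive-type cells, the direction of Cd8b1 turned to 1.14 (1.02 to 1.27) and 1.13 (0.961 to 1.32). Per cell the Cd8b1 ratio was 0.954 and 1.01. The Cd8b1 to Cd8a ratio was accordingly 2.73 and 2.52 in naive-type cells, 3.37 and 3.31 in Ly6c2 cells, and 2.75 and 2.79 in Gzmk cells. In the donor the Gzmk interval, 2.66 to 2.92, lay above the naive-type one, 2.43 to 2.62. Within Ly6c2 cells Cd8a was lower where Ccl5 was above 3 UMIs, at 0.359 in the recipient and 0.407 in the donor, than where it was at most 3, at 0.541 and 0.608.

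Per 1000 UMIs, Fcer1g cells had the least coreceptor transcript of the 4 classes, and they came through a CD8a protein gate. Per cell this held in the recipient, whereas donor Fcer1g cells had 7.40 Cd8b1 and 2.56 Cd8a UMIs against 6.04 and 2.17 in donor Gzmk cells. Against naive-type cells of the same library, recipient Cd8a had a ratio of 0.187 (0.157 to 0.221) and donor Cd8a one of 0.442 (0.368 to 0.527). Cd8b1 had 0.192 (0.173 to 0.212) and 0.506 (0.455 to 0.561). With each cell thinned to 3500 UMIs, a Cd8b1 UMI was found in 39.0% of 164 recipient cells (31.5 to 46.9) and in 77.6% of 49 donor cells (63.4 to 88.2), against 99.2% and 99.1% of naive-type cells. Without thinning the shares were 49.4% of 170 and 88% of 50. Cd3e did not follow, with a thinned share of 93.3% in the recipient and 87.8% in the donor. Only 2 recipient barcodes and 1 donor barcode had 5 or more B cell marker UMIs, too few to measure the share that free RNA alone would give in B cells, and other cell types were not counted for this.

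The coreceptor level tracked the cell's own Fcer1g count. Recipient cells with 0, 1, 2 to 3, and 4 or more Fcer1g UMIs had Cd8b1 levels of 1.58, 0.595, 0.289 and 0.162. Donor cells had 1.52, 1.16, 0.544 and 0.706, the last from 6 cells. The recipient value was lower at every step, and the donor value was lower at each step up to the thinly filled last bin. Of the CD4 T cell list, Cd4 and Cd40lg were at 0 in Fcer1g cells of both libraries, while Zbtb7b gave 7 recipient and 2 donor UMIs. The list summed to 0.00610 and 0.00477, against 0.00305 and 0.00353 in naive-type cells. Cd4 was also at 0 in the other recipient classes and in donor Gzmk cells. Summed NK cell markers were at 0.566 in recipient and 0.179 in donor Fcer1g cells, against 0.0144 and 0.0177 in naive-type cells, with 4 of 5 and 3 of 5 of them detected and Klra8 at 0 in both. Summed NKT cell markers were at 0.308 and 0.0763, against 0.0190 and 0.0195 in naive-type cells, with 2 of 3 detected, Zbtb16 at 0, and Klrb1c shared with the NK list. Ncr1 gave 2 recipient UMIs and 0 donor UMIs, and summed gamma-delta markers were at 0.0567 and 0.0191, with Trdv4 and Sox13 at 0 in both. Cells with a UMI of other lineages, here the B cell, myeloid, erythroid, platelet, plasma cell and CD4 T cell lists, were then left out. NK, NKT and gamma-delta marker UMIs did not exclude a cell. A single UMI of the other lists did, and myeloid markers gave UMIs in every class, 62 over the 50 donor Fcer1g cells. The filter can thus drop CD8 T cells, deeper ones more readily, and the number of cells lost is not given here. In the recipient the log2 ratio of Fcer1g to naive-type cells was then -2.40 for Cd8a and -2.31 for Cd8b1. Without this filter it was -2.42 and -2.38. In the donor the ratio was -1.58 and -1.43 with the filter, beside -1.18 and -0.98.

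**Figure D2:**
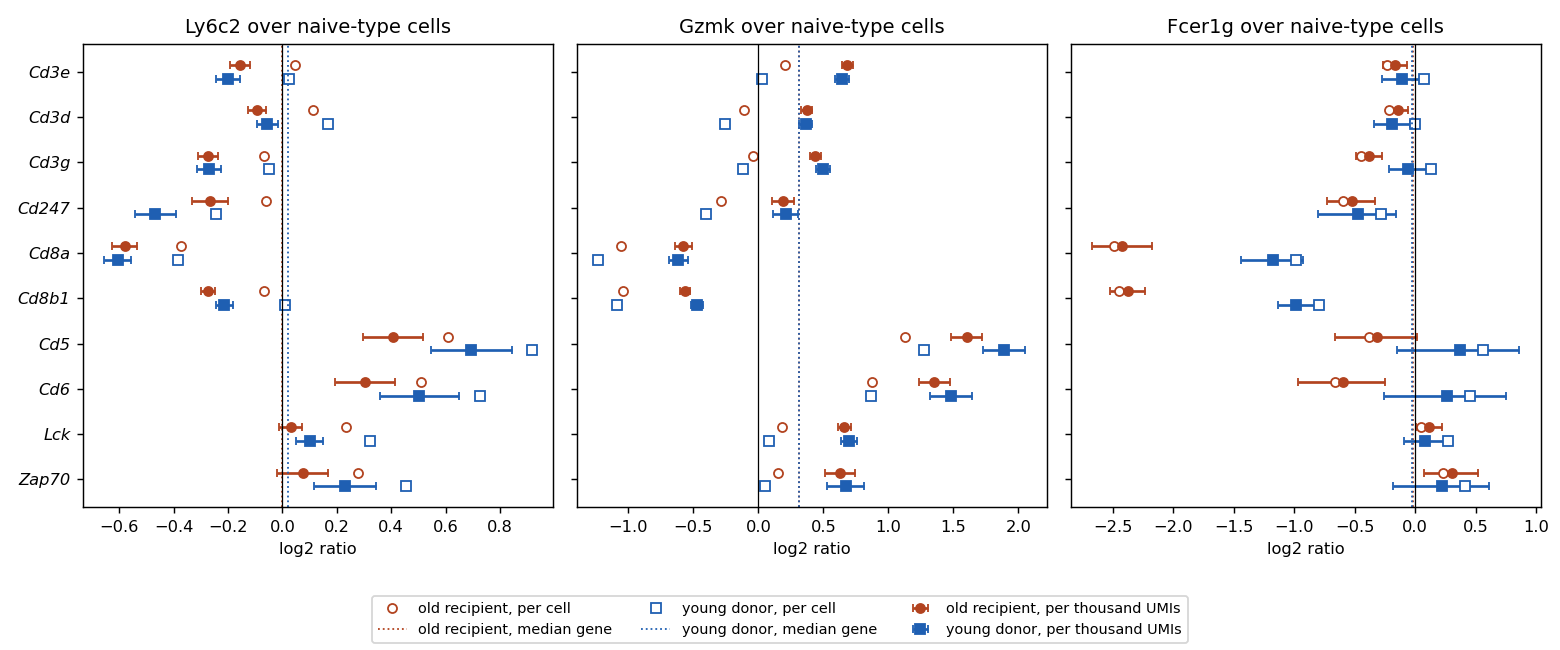
log2 ratio of each class to naive-type cells (horizontal axes) for the 10 genes; circles are the old recipient and squares the young donor, filled symbols are ratios of levels per 1000 UMIs with 95% counting intervals, open symbols are ratios of UMIs per cell, and dotted lines mark the median of all genes with enough UMIs. In Gzmk cells Cd5 and Cd6 lie to the right of the median gene and Cd8a and Cd8b1 to its left on both scales.

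Cd5 and Cd6 were the members with the largest class differences upward. Cd5 stood at 0.0867 per 1000 UMIs in naive-type, 0.115 in Ly6c2, 0.264 in Gzmk and 0.0697 in Fcer1g cells of the recipient. The donor values were 0.0681, 0.110, 0.252 and 0.0882. Cd6, which binds CD166 on antigen-presenting cells, stood at 0.0924, 0.114, 0.236 and 0.0610 in the recipient and at 0.0733, 0.104, 0.205 and 0.0882 in the donor. Per 1000 UMIs, Gzmk cells exceeded the other 3 classes for both genes and in both libraries without overlap of intervals. Ly6c2 cells were above naive-type cells, and the donor Fcer1g intervals overlapped both.

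The ratio of Gzmk to naive-type cells for Cd5 was 3.04 in recipient cells (2.80 to 3.30) and 3.71 in donor cells (3.31 to 4.15). For Cd6 it was 2.55 (2.35 to 2.78) and 2.79 (2.50 to 3.13). Relative to the median gene these were 2.45 and 2.99 for Cd5 and 2.06 and 2.25 for Cd6, and per cell 2.18 and 2.42 for Cd5 and 1.83 and 1.82 for Cd6. Among cells of 4000 to 6000 UMIs the Cd5 ratio was 2.84 and 3.17. It was widest among cells of 2000 to 4000 UMIs in the donor, where 42 naive-type cells gave 5.68 (2.58 to 15.6) for Cd5 and 1.67 (1.03 to 2.85) for Cd6. Over all 4 depth ranges from 2000 to 12000 UMIs both genes were higher in Gzmk cells. After thinning, 56.3% of recipient and 53.5% of donor Gzmk cells had a Cd5 UMI, against 24.5% and 20.3% of naive-type cells. Unthinned shares were 64% and 59.9%, against 41.2% and 35.9%.

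Along a cell's own Gzmk count, Cd5 was higher at each step and Cd8b1 ended lower. Recipient cells with 0, 1, 2 to 3, 4 to 7, and 8 or more Gzmk UMIs had Cd5 levels of 0.102, 0.159, 0.218, 0.248 and 0.312, and donor cells had 0.104, 0.135, 0.196, 0.273 and 0.289. Cd8b1 over the same bins was 1.60, 1.62, 1.46, 1.30 and 0.931 in the recipient and 1.54, 1.77, 1.47, 1.27 and 0.948 in the donor. Cd8b1 was therefore lower than in cells without Gzmk only above 1 Gzmk UMI. Cells with 1 or more Gzmk UMIs were shallower than those with none, with medians of 4050 to 5113 UMIs per recipient cell and 4327.5 to 4691 per donor cell, against 7598 and 8250. Gzmk cells that were also Ly6c2 cells, 100 in the recipient and 78 in the donor, differed by member. Their Cd5, at 0.157 and 0.147, was nearer that of Ly6c2 cells, their Lck, at 0.938 and 0.946, nearer that of Gzmk cells, and their Cd8b1, at 1.68 and 1.70, above that of both.

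**Figure D3:**
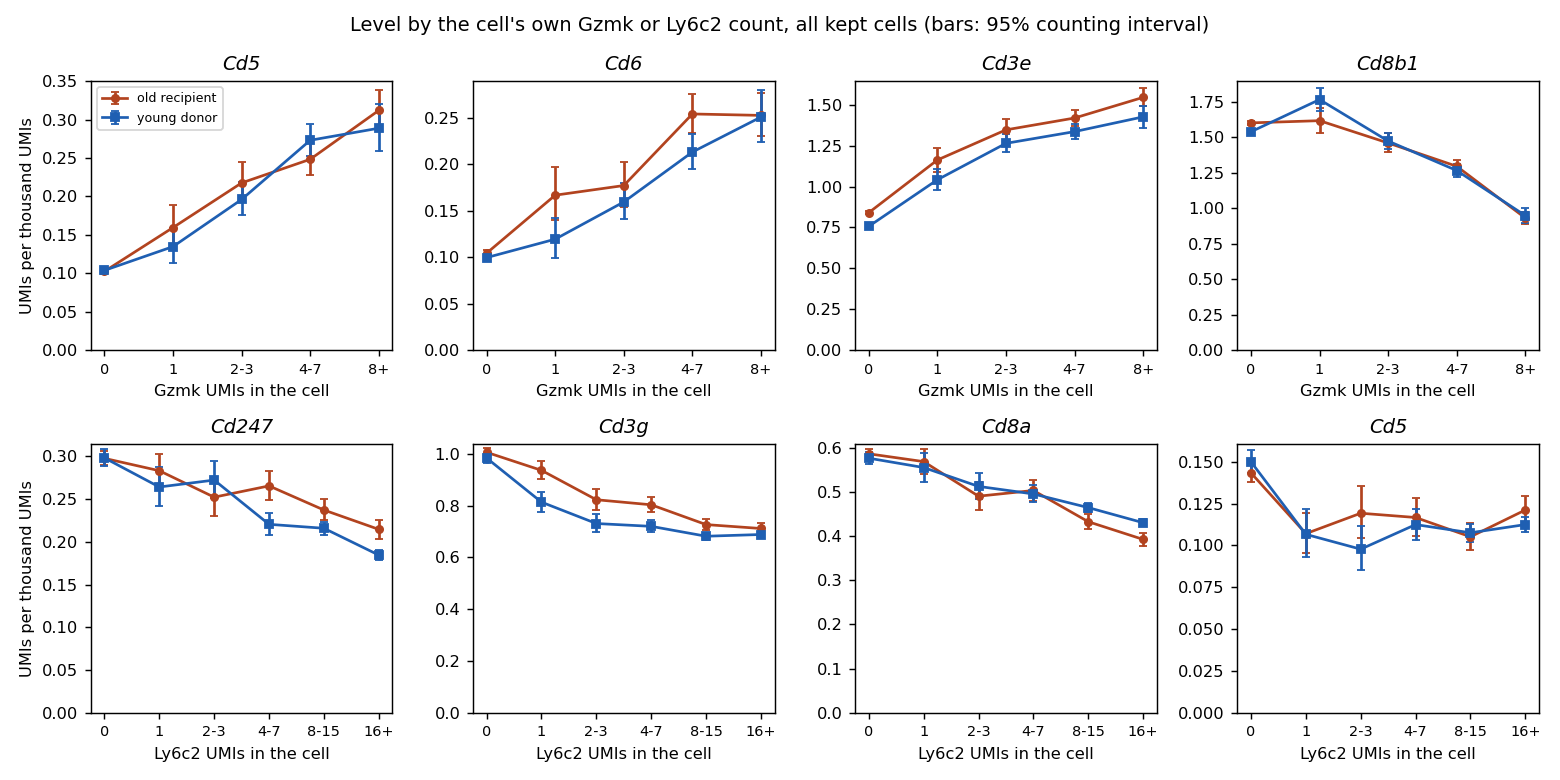
Level per 1000 UMIs (vertical axes, linear from 0) by the number of Gzmk UMIs (top) or Ly6c2 UMIs (bottom) in the cell, over all kept cells; circles are the old recipient, squares the young donor, and bars are 95% counting intervals. Cd5 and Cd3e are highest and Cd8b1 is lowest, at 0.931 and 0.948, in cells with the most Gzmk, and Cd247, Cd3g and Cd8a end lower in cells with the most Ly6c2.

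The 200 bases before the transcription starts of Cd5 and Cd8a are shown because these genes differed in opposite directions in Gzmk cells. Of the 10 members, 8 had a promoter entry in RefSeq (GRCm38.p6), all except Cd8b1 and Cd6. Sequences are given 5' to 3' on the gene's strand, and capitals mark matches on either strand to AGGAAG (an ETS-type core), TGTGGT (a RUNX-type core) or CANNTG (an E-box). For Cd5 the 28 bases that fall inside the GENCODE gene were left off, and 172 remain.
Cd5, chr19:10739003-10739174, minus strand: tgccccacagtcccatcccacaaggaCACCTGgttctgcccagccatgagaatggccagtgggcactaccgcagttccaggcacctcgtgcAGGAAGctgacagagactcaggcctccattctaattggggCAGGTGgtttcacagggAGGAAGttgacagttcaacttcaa
Cd8a, chr6:71373227-71373426, plus strand: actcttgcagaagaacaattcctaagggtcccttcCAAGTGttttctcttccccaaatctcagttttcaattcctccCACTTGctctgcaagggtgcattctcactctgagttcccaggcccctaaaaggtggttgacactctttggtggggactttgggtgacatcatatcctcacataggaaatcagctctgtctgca
Cd5 had 2 matches to AGGAAG and 2 to CANNTG, and Cd8a had 2 to CANNTG. Neither window held TGTGGT. Among 32851 promoter windows of 200 bases, 24.7% held AGGAAG, 11.2% TGTGGT and 58.2% CANNTG, and the matches are a description of the letters only.

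Per 1000 UMIs both kinases were highest in Gzmk cells and differed less among the other classes. Lck stood at 0.639 in naive-type, 0.653 in Ly6c2, 1.01 in Gzmk and 0.692 in Fcer1g cells of the recipient, and at 0.620, 0.665, 1.01 and 0.658 in the donor. Zap70 stood at 0.131, 0.138, 0.203 and 0.161 in the recipient and at 0.118, 0.139, 0.188 and 0.138 in the donor. The interval of Zap70 in donor Fcer1g cells, 0.105 to 0.179, was wide enough to contain the naive-type and Ly6c2 levels and to reach the lower bound of Gzmk cells, 0.177. The ratio of Gzmk to naive-type cells was 1.58 and 1.62 for Lck and 1.55 and 1.59 for Zap70, and relative to the median gene it was 1.27 and 1.31 for Lck. Per cell the ratios were 1.14 and 1.06 for Lck and 1.11 and 1.04 for Zap70. Ly6c2 cells led per cell in both libraries, with 5.33 and 5.72 Lck UMIs against 5.14 and 4.84 in Gzmk cells, and 1.12 and 1.19 Zap70 UMIs against 1.03 and 0.904. Zap70 UMIs per Lck UMI stayed between 0.187 and 0.233 in all 4 classes of both libraries.

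A ratio was counted as past the fold threshold when it lay beyond 0.32 on the log2 scale, either way, with at least 50 UMIs expected on each side. Against naive-type cells, 9 of 10 members were past it in Gzmk cells of each library, 7 higher and Cd8a and Cd8b1 lower. Of all genes with enough UMIs, 60.2% were past it in the recipient (49% higher and 11.2% lower) and 58.9% in the donor (48.7% higher and 10.2% lower). Since most genes were past it, that count is not read as a result about the members. In Ly6c2 cells 2 of 10 members were past the fold in the recipient, Cd5 higher and Cd8a lower, against 18.5% of genes (11.7% higher and 6.83% lower). In the donor 4 were, Cd5 and Cd6 higher and Cd8a and Cd247 lower, against 20% of genes (13.3% higher and 6.64% lower). In Fcer1g cells 5 of 10 were lower in the recipient, namely Cd3g, Cd247, Cd8a, Cd8b1 and Cd6, against 28.4% of genes past the threshold (14% higher and 14.4% lower). In the donor 3 of the 8 with enough UMIs were lower, namely Cd247, Cd8a and Cd8b1, against 21% of genes (7.78% higher and 13.2% lower), and Cd5 and Cd6 had 37 UMIs each there.

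Between the libraries the 10 genes were close within the same class, with exceptions in naive-type and Fcer1g cells. In naive-type cells Cd5 was 1.27 times as high in the recipient (1.13 to 1.43) and Cd6 1.26 times (1.13 to 1.41). These 2 of 10 members were past the threshold, against 9.03% of genes (5.6% higher and 3.43% lower). Both lie just beyond it. Per cell, or relative to the median gene, no member passed it. In Ly6c2 cells no member was past it, against 8.32% of genes (4.37% higher and 3.94% lower), and Cd247 came nearest at 1.16 (1.12 to 1.20). Over all kept cells none was past it, against 12.1% of genes (7.02% higher and 5.08% lower), and Cd247 was again the furthest at 1.19 (1.16 to 1.22). That ratio mixes the classes unequally, since Ly6c2 cells were 42.1% of recipient and 69.0% of donor cells. In naive-type and Gzmk cells Cd247 had 1.01 (0.951 to 1.07) and 0.996 (0.932 to 1.06). Ly6c2 cells were mixed unequally too. In those with at most 3 Ccl5 UMIs, 908 recipient and 1203 donor cells, Cd247 stood at 0.250 and 0.242. In those above 3, 1342 and 3937 cells, it stood at 0.225 and 0.192. Cd247 lies on chromosome 1, 27.6 Mb from Ptprc, the CD45 gene whose alleles separated the 2 populations in the sort. The part of sequence linked to the CD45 alleles in these Cd247 ratios was not tested.

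In Fcer1g cells the recipient had 0.400 times the donor's Cd8a (0.313 to 0.512) and 0.388 times its Cd8b1 (0.336 to 0.449), the widest gaps between libraries for any member and class. These were 2 of the 8 members with enough UMIs, against 20.4% of genes (14.7% higher and 5.79% lower). The other 6 were within it, from 0.863 for Cd3g to 1.17 for Zap70. The difference in the class effect itself, log2 of Fcer1g over naive-type cells in the recipient minus that in the donor, was -1.24 (-1.59 to -0.89) for Cd8a and -1.40 (-1.60 to -1.19) for Cd8b1. The interval also excluded 0 for Cd3g at -0.32 (-0.52 to -0.13), for Cd5 at -0.69 (-1.27 to -0.10) and for Cd6 at -0.86 (-1.46 to -0.27), the last pair from 37 donor UMIs each. In Ly6c2 cells the same interval excluded 0 for 6 members, with Cd5 the furthest at -0.29 (-0.47 to -0.10). In Gzmk cells it did for 2, Cd5 at -0.29 (-0.49 to -0.09) and Cd8b1 at -0.09 (-0.15 to -0.03). These 2 Cd5 values share the naive-type reference, where recipient over donor was 1.27, beside 1.04 in Ly6c2 and 1.04 in Gzmk cells. They thus come mainly from the naive-type cells. The Fcer1g class also differed in make-up, since 59 of 170 recipient and 25 of 50 donor Fcer1g cells had a single Fcer1g UMI. At a single UMI Cd8b1 was 0.595 in the recipient and 1.16 in the donor, and at 2 or more it was 0.222 and 0.581, so the gap was present in both strata. With cells carrying UMIs of other lineages left out, the log2 ratio of recipient to donor was -0.88 for Cd8a and -0.84 for Cd8b1, beside -1.32 and -1.36 with them, and neither gene had enough UMIs to be counted. When cells that met more than 1 class were left out, almost no donor Fcer1g cells remained and no member had enough UMIs.

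**Figure D4:**
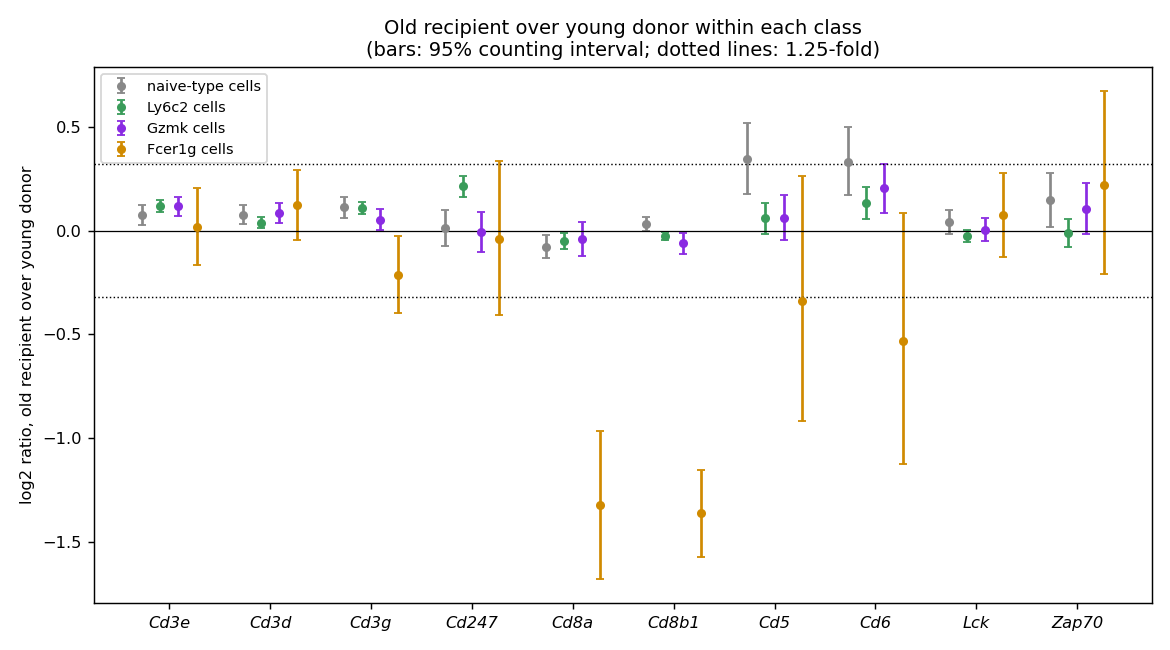
log2 ratio of the old recipient to the young donor (vertical axis) for the 10 genes within naive-type, Ly6c2, Gzmk and Fcer1g cells; bars are 95% counting intervals and dotted lines mark the fold threshold. Most points lie between the dotted lines, and Cd8a and Cd8b1 in Fcer1g cells lie far below them at -1.32 and -1.36.

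In Gzmk cells no member was past the threshold between the libraries, against 11.9% of genes (7.87% higher and 4.03% lower), with Cd5 at 1.04 (0.968 to 1.12) and Cd6 at 1.15 (1.062 to 1.2501). This depended on which receptor groups were counted. Cells were grouped by the Trbv segment with the most UMIs, a mark that clonally related cells share, and the leading segments of Gzmk cells differed between libraries. They were Trbv16 with 14.6%, Trbv13-2 with 11.3% and Trbv1 with 9.07% of recipient cells, and Trbv17 with 19.7%, Trbv12-1 with 18.9% and Trbv19 with 12.9% of donor cells. With the 3 commonest segments of each class left out, a setting chosen after the data were seen, Cd5 became 1.73 times and Cd6 also 1.73 times as high in the recipient. The donor's Gzmk to naive-type ratio then went from 3.71 to 2.25 for Cd5, from 2.79 to 1.98 for Cd6 and from 0.722 to 0.937 for Cd8b1. In the recipient the log2 ratios were then 1.56 for Cd5 and 1.35 for Cd6, beside 1.60 and 1.35 with all segments.

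Gzmk cells of different Trbv segments held very different amounts of Cd5 and Cd8b1. Among the 8 donor segments with at least 40 cells, Cd5 ran from 0.0709 in the 107 Trbv14 cells to 0.440 in the 58 Trbv4 cells. Cd8b1 ran in reverse, from 2.03 in Trbv14 to 0.341 in Trbv4. The Trbv14 cells, though carrying Gzmk, thus had a Cd5 level within counting error of the donor's naive-type cells and a higher Cd8b1 level. The 2 commonest donor segments were high in Cd5 and low in Cd8b1, Trbv17 with 0.398 and 0.802 and Trbv12-1 with 0.387 and 0.782. Across the 8 segments Pearson's r between Cd5 and Cd8b1 was -0.90 and Spearman's rho -0.98, a description of points that share a library and its depth.

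The 11 recipient segments showed this less. Cd5 ran from 0.168 in the 45 Trbv29 cells to 0.404 in the 66 Trbv13-3 cells, and Trbv13-3 also had the lowest Cd8b1, 0.230. The highest Cd8b1, 2.01 in the 48 Trbv4 cells, went with a high Cd5 of 0.345, and the 96 Trbv5 cells likewise had 1.51 and 0.338. Pearson's r between Cd5 and Cd8b1 was -0.41 and Spearman's rho -0.10 in the recipient. Within each of these gene pairs the segments ran alike in both libraries, with r of 0.84 and 0.96 for Cd5 and Cd6 and 0.75 and 0.97 for Cd8a and Cd8b1. Ly6c2 cells showed no such spread, with Cd8b1 between 1.26 and 1.66 in the recipient and 1.43 and 1.64 in the donor, and Cd5 between 0.0863 and 0.151, and 0.0936 and 0.124.

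**Figure D5:**
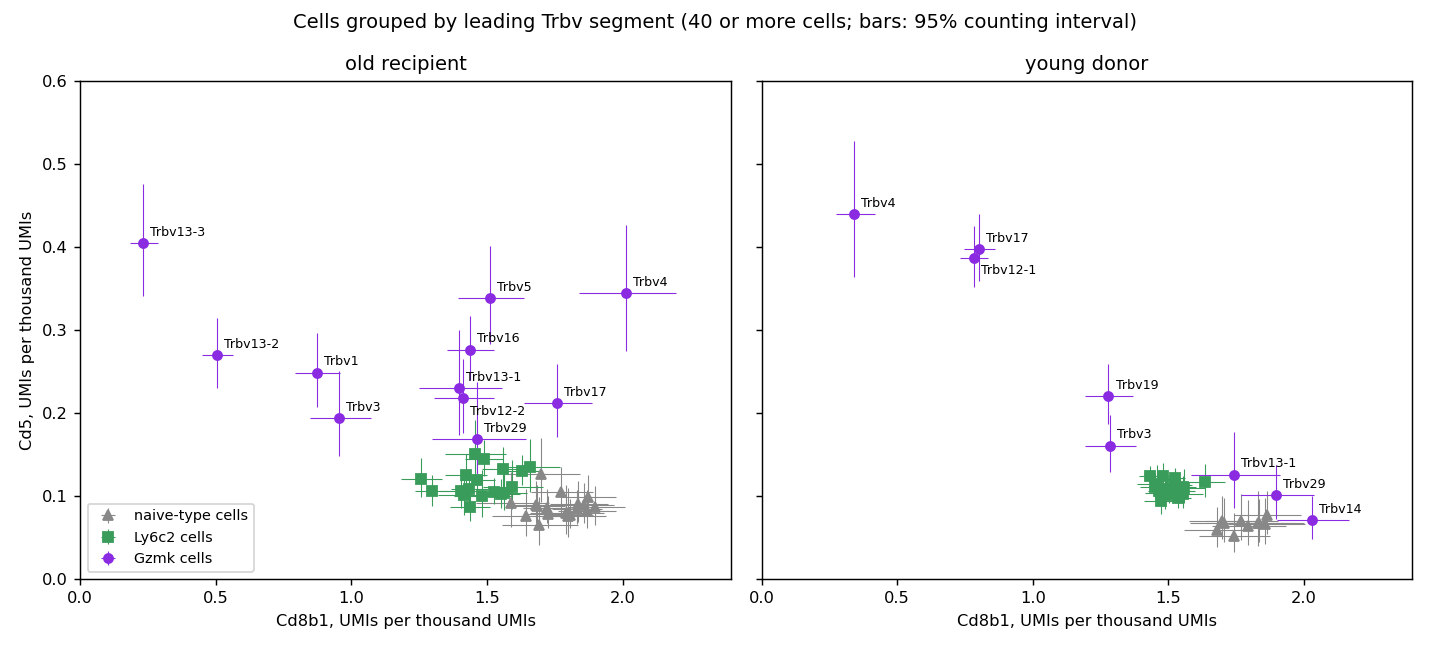
Cd5 (vertical axis) against Cd8b1 (horizontal axis), both in UMIs per 1000 UMIs, for cells grouped by leading Trbv segment; triangles are naive-type, squares Ly6c2 and circles Gzmk cells, each point is a segment with 40 or more cells, and bars are 95% counting intervals. Naive-type and Ly6c2 segments cluster, while Gzmk segments spread from 0.230 to 2.03 in Cd8b1.

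Cell by cell the same spread appeared in Cd8b1. After thinning, the variance of Cd8b1 UMIs over their mean was 3.33 and 3.05 in Gzmk cells and 4.42 and 2.84 in Fcer1g cells, against 1.52 and 1.40 in naive-type cells. Of recipient Gzmk cells 14.9% had no Cd8b1 UMI and 48.3% had 4 or more, and of donor ones 12.5% and 49.3%. Donor Gzmk cells with 0, 1 to 3, and 4 or more Cd8b1 UMIs had Cd5 levels of 0.395, 0.293 and 0.182. Recipient ones had 0.276, 0.293 and 0.238, with no steady order. Cd8a followed Cd8b1 in both, at 0.297, 0.362 and 0.514 in the recipient and 0.326, 0.381 and 0.501 in the donor.

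Other genes of receptor signalling were read from a list of 48, all present in the files. In Gzmk cells 30 of 45 with enough UMIs were higher and 6 lower than in naive-type cells of the recipient, and 28 and 7 in the donor. Of all genes, 49% and 48.7% were higher and 11.2% and 10.2% lower. Their median log2 ratio was 0.54 and 0.39, beside 0.31 for all genes. The kinase Fyn, which shares work with Lck, went from 0.0573 to 0.247 in the recipient and from 0.0683 to 0.246 in the donor, log2 ratios of 2.11 and 1.85. Fyn UMIs per Lck UMI thus went from 0.0896 and 0.110 to 0.244 in both libraries. The costimulatory receptor gene Cd28 went from 0.0631 to 0.256 and from 0.0750 to 0.265, log2 ratios of 2.02 and 1.82. Ubash3b, a phosphatase that damps Zap70 signalling, had 1.72 and 1.45, and Trat1, an adaptor bound to the receptor complex, 1.21 and 1.66. Pag1, a membrane adaptor that recruits the inhibitory kinase Csk, was lower at -1.77 and -1.21. The kinase gene Tec, at -0.45 and -0.82, and the diacylglycerol kinase gene Dgka, at -0.69 and -0.57, were lower too.

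In Ly6c2 cells 12 of 46 listed genes were higher and 3 lower in the recipient, and 13 of 44 higher and 2 lower in the donor, beside 11.7% and 13.3% of all genes higher and 6.83% and 6.64% lower. Sla, an adaptor that promotes turnover of the receptor, had log2 ratios of 0.79 and 0.95, and Fyn 0.65 and 0.60. Lat, the adaptor that Zap70 phosphorylates, was lower at -0.36 and -0.41, as was Dgka at -0.43 and -0.48. In Fcer1g cells 14 of 34 were higher and 5 lower in the recipient, and 4 of 18 higher and 5 lower in the donor, beside 14% and 7.78% of all genes higher and 14.4% and 13.2% lower. The kinase Txk had 1.05 and 0.47 and the adaptor Hcst 0.81 and 0.56, while Lat had -1.20 and -0.70. Lat stood at 0.649 in naive-type, 0.505 in Ly6c2, 1.13 in Gzmk and 0.282 in Fcer1g cells of the recipient, and at 0.612, 0.462, 1.05 and 0.377 in the donor, highest in Gzmk cells as Cd3e was, a value named after it was seen.

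Between libraries few genes of the list were past the threshold. In naive-type cells 1 of 45 was, beside 9.03% of all genes, namely Trat1, higher in the recipient at 2.20 (1.56 to 3.16). In Ly6c2 cells 1 of 45 was, beside 8.32% of all genes, the adaptor Tyrobp, at 2.20 (1.73 to 2.79). In Gzmk cells 5 of 45 were higher in the recipient, namely Trat1, Dgkz and the receptor constant genes Trac, Trbc1 and Trbc2, and Pag1 was lower, beside 7.87% of all genes higher and 4.03% lower. Trbc1 was the furthest at 1.99 (1.78 to 2.23). In Fcer1g cells 5 of 19 were higher, namely Fyn, Txk, Csk, Ptprc and Sla, and Lat was lower, beside 14.7% and 5.79% of all genes. Over all kept cells Trat1, Dok1, Trbc1 and Tyrobp were higher, 4 of 46, beside 7.02% of all genes.

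Across the 8 class levels of both libraries, the genes most like the members among 1306 searched were given by Pearson's r. Cd3e was most like Pld3 and Gdi2, both 0.998, and Cd3d most like Supt4a, 0.995, and Cnn2, 0.991. Cd3g was most like Coro1a and Akr1a1, both 0.991, and Cd247 most like Saraf, 0.983, and Eif3f, 0.981. Lck and Zap70 were also closely matched, by Sumo2 at 0.997 and Arhgap9 at 0.995. Cd8b1 had looser company, Btf3 at 0.940. Cd5 was most like Ech1, 0.973, and Cd6 most like Pycard and Eloc, both 0.974. The points share 2 libraries and overlapping cells, and r is a description.

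In the genome the members lie in pairs and clusters. Cd3g (chromosome 9, 44969572 to 44980431), Cd3d (44981786 to 44987339) and Cd3e (44998740 to 45009627) form a cluster on GRCm38, with 1354 bases between the first pair. Cd8b1 (chromosome 6, 71322788 to 71337494) and Cd8a (71373427 to 71379173) lie 35.9 kb apart. Cd5 (chromosome 19, 10717116 to 10739002) and Cd6 (10789341 to 10830058) lie 50.3 kb apart. Cd247 (165788681 to 165877277) and Zap70 (36761798 to 36782818) are on chromosome 1, and Lck (129548344 to 129573641) is on chromosome 4. Relative to all UMIs, the neighbours Cd5 and Cd6 lay on the same side of the naive-type level in all 6 comparisons of a class with it. So did Cd8a and Cd8b1, and so did Cd3e, Cd3d and Cd3g. Members that are not neighbours did the same. Lck and Zap70 lay above it in all 6, and Cd247 sided with the CD3 chains, so the trait is not particular to neighbours. In donor Fcer1g cells Cd5 and Cd6 had 37 UMIs each, and both intervals included 1 (0.898 to 1.81 and 0.835 to 1.68). So did those of Cd3e (0.825 to 1.03) and Cd3g (0.858 to 1.07) there, and of Cd5 in recipient Fcer1g cells (0.632 to 1.01). Per cell the agreement held for Cd5 and Cd6 and for Lck and Zap70, but not for the CD8 or CD3 chains. Recipient Ly6c2 cells had 1.03 for Cd3e and 1.08 for Cd3d but 0.953 for Cd3g. Donor Ly6c2 cells had 0.767 for Cd8a and 1.01 (0.986 to 1.03) for Cd8b1. Cd247 shares sequence on the opposite strand with Pou2f1, and Cd3e with Gm48719, so their counts rest on the strand being read correctly.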

How the data were processed

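Splenic CD8 T cells were profiled in 2 droplet 5' libraries, 1 per group. The deposited files hold raw UMI counts per gene and barcode, not normalized by the authors. Per the submitters' processing notes Cell Ranger, Seurat and mm10 were used, and the file headers give software version 3.0.2. Cell calling rules were not given in the sources used here.

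The recipient library had 6174 barcodes and 41504941 UMIs, the donor 8588 and 65006187. UMIs of features with the same symbol were added, which took 31053 features to 31017 symbols. Barcodes under 500 genes or over 10% mitochondrial UMIs were left out (555 and 587), then doublets by simulated-doublet scores, 2 simulated per cell over 1500 genes (278 and 550).

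UMIs were summed per class and library with Python 3.11.15 and scipy 1.17.1. Levels have exact Poisson intervals, ratios exact intervals for 2 Poisson sums, and shares exact Clopper-Pearson intervals, all for counting error. A ratio was read where at least 50 UMIs were expected on each side. Shares used cells thinned to 3500 UMIs, which left out 19.2% and 21.1% of Gzmk cells. The scripts were tested on simulated data. No p-value was computed. Signalling genes named were the 4 highest and 4 lowest past the fold threshold in both libraries, the threshold being 0.32 on the log2 scale. Some genes that these rules name are not reported here. The 10 genes, the classes and the lists were chosen with earlier results of these data known. Other settings tried are in the closing section.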

Additional observations from a re-analysis of the deposited data

How the results depend on the processing

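No paired analysis was possible because each group is 1 library. There were 28 counts and 110 gene ratios. Counts of members past the fold were recomputed under 18 settings, 3 of them chosen after the data were seen, and gene ratios under at most 16. Signalling list counts were redone only with thinning or at 5000 to 10000 UMIs, and share counts only without thinning or at 2000 UMIs. Of the recomputed counts, 196 stayed within 1.5 times of the reported one and 36 did not. Per cell, Cd3d in Gzmk against naive-type cells went to log2 -0.11 in the recipient and -0.25 in the donor, and Cd3g to -0.0395 and -0.12. With cells in more than 1 class left out, Cd8b1 in donor Fcer1g against naive-type cells went to 0.0582. With cells carrying UMIs of other lineages left out, Cd5 in donor Fcer1g against naive-type cells went to -0.36, and recipient over donor in Fcer1g cells went to 0.23 for Cd5 and 0.0115 for Cd6. Members past the fold in Gzmk cells went from 9 to 4 in the recipient per cell or without ribosomal, mitochondrial and receptor segment genes in the totals, to 5 in the donor per cell, and to 5 in the recipient at 1.5-fold. In Ly6c2 cells they went from 2 to 4 in the recipient without cells of other-lineage UMIs, and at 1.5-fold to 0 in the recipient and 2 in the donor. In Fcer1g cells they went to 1 (recipient) and 0 (donor) without cells in more than 1 class, where only 1 and 0 members had enough UMIs, and to 3 in the recipient at 1.5-fold. Between libraries in naive-type cells 2 became 1 under those totals, TMM scaling or thinning, and 0 relative to the median gene, per cell or at 1.5-fold. In Fcer1g cells 2 became 0 after thinning, without cells in more than 1 class, and without cells carrying UMIs of other lineages. Those settings left Cd8a and Cd8b1 too few UMIs. The 2 became 1 at 5000 to 10000 UMIs, at the higher class thresholds and without the commonest Trbv segments of either library or class. They became 4 per cell or with 20 UMIs expected. In Gzmk cells 0 became 1 without the commonest Trbv segments of each library and 2 without those of each class. For the signalling list, thinning gave 12 (recipient) and 2 (donor) genes in Fcer1g cells in place of 19 and 9 and 0 in place of 6 between libraries, and cells of 5000 to 10000 UMIs gave 3 in the donor, 3 between libraries in Fcer1g cells, 3 in naive-type cells and 2 over all cells. Without thinning, members with a higher share of cells than naive-type in Ly6c2 cells went from 3 to 6 and from 4 to 8. The cause of these changes was not tested. Depth limits Cd5, Cd6 and Zap70 in donor Fcer1g cells, with 37, 37 and 58 UMIs.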

Other observations

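The members were also read along a cell's own Ccl5 count, a chemokine gene of memory CD8 T cells, over all kept cells. Recipient cells with 0, 1 to 3, 4 to 15, 16 to 63, 64 to 255, and 256 or more Ccl5 UMIs had Cd5 levels of 0.0942, 0.0946, 0.131, 0.137, 0.173 and 0.322 per 1000 UMIs. Donor cells had 0.0803, 0.0905, 0.115, 0.120, 0.139 and 0.304. The last step was the largest in both libraries, and rested on 178 and 118 cells with medians of 5268.5 and 5469 UMIs. Cd8a went down over the first 5 bins, from 0.620 to 0.364 in the recipient and from 0.650 to 0.380 in the donor, and stood at 0.476 and 0.420 in the last bin.

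The recipient Gzmk cells with Trbv5 had the highest Cd3e among segments with at least 40 cells, 2.06 per 1000 UMIs, where the other 10 recipient segments lay between 1.27 and 1.65 and the 8 donor segments between 1.20 and 1.51.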
